A study of Mus musculus with 15 samples.

Results

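The regions described here are the ATAC-seq peaks of mouse pancreatic islets that the authors' annotation places in an exon, a 5' UTR, a 3' UTR or within 3 kb downstream of a gene. ATAC-seq marks open chromatin through the places where the Tn5 transposase can cut and tag DNA. Among the listed peaks the members were taken by the annotation label alone, with each position counted once. A listed peak had been called in at least 2 libraries of its comparison, so measured signal decided which peaks were listed. They made up 401 of 13858 regions when overlapping peaks of the 4 deposited comparisons were merged. By comparison they numbered 164 of 7826 peaks between βKO and control islets before partial pancreatectomy (PPx, an operation that takes out a portion of the organ), and 366 of 13111 after PPx. In the comparisons of after with before PPx they numbered 349 of 12767 peaks in βKO islets and 175 of 8070 in control islets.

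The study asked how the loss of Arid1a in β cells changes islet chromatin before and after PPx. All 15 mice were males aged 3 months that were Arid1aFl/Fl, with both copies floxed, and carried MIP-rtTA, an activator made under an insulin promoter that works only with doxycycline, and the protocol gave doxycycline in drinking water at 1 g/L for 2 weeks. The βKO mice (Arid1aFl/Fl; MIP-rtTA; TRE-Cre) also carried a Cre transgene that this activator turns on, and the control mice (Arid1aFl/Fl; MIP-rtTA) did not. There were 4 βKO and 4 control mice with islets taken 6 days after PPx, which itself followed 1 week after the end of doxycycline, and 3 βKO and 4 control mice without PPx. Whole islets also hold endocrine cells other than β cells, as well as vessels, stroma and leukocytes, in which no deletion is expected from an insulin promoter. In such bulk samples fewer cells of a type and less open chromatin per cell cannot be told apart. Peaks were listed at 7 of 10 islet endocrine marker genes in every comparison (among them Ins1, Gcg, Sst and Nkx6-1), at 0 of 4 acinar and 0 of 3 duct markers, and at Cdh5, Col3a1, Csf1r or Ptprc in some comparisons. Pkhd1, which is on the longer duct list of 11 genes and not among those 3 markers, had 2 members in every comparison.

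Arid1a is a subunit of the SWI/SNF (BAF) remodelling complex, which uses ATP to slide or evict nucleosomes and thereby opens promoters and enhancers. Open chromatin inside genes and just past their ends is less common than at promoters. It can mark enhancers that lie within a transcribed unit, start sites of internal or neighbouring transcripts, and regions near the site where a transcript ends.

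Peaks within 3 kb of a gene start carry a promoter label of their own in the authors' annotation. That most members lay away from known start sites therefore follows largely from the labels. Some of the few members at a start are shown by sequence. Of 349 members after PPx on the chromosomes searched, 17 (4.87%) overlapped the window from 250 bases before to 50 after a start in RefSeq (GRCm38.p6), against 72.0% of 7798 promoter peaks, 1.50% of 1602 intron peaks and 5.83% of 2914 distal intergenic peaks. In 14 of the 17 the start itself lay inside the peak, and in 3 it was a start of the gene that the peak is annotated to. The sequences below are 30 bases before or near the start at the 4 members of this kind that opened in βKO islets after PPx, and at the peaks of Egf exon 6 and downstream of Zfp329, which hold matches to a named motif. They read 5' to 3' on the strand of the RefSeq transcript, and capitals mark a GC box at Ndst2 (GGGCGG, here on the reverse strand), a CCAAT box at Gm10130, the NRF1 motif at Egf and the cAMP response element at Zscan18 (TGACGTCA).
Ndst2 (peak downstream of Camk2g, chr14:20734563-20734592, minus strand): cctgggcCCGCCCcgacgctccgcagactg
Gm10130 (peak in exon 4 of 3300002I08Rik, chr2:150311394-150311423, plus strand): ggaggcggtcctgCCAATcagaggagaagg
Gm33475 (peak in exon 7 of St3gal6, chr16:58475913-58475942, plus strand): ttaccaaccaccacacaccttttacatggc
Gm29638 (peak in exon 2 of 1810019N24Rik, chr7:12949955-12949984, plus strand, start outside the peak): gttccacccaaaaactgagcgtgtgcacca
Egf (peak in exon 6 of Egf, chr3:129725087-129725116, minus strand): aggtaatgtGCGCATGCGCcagaagctgtc
Zscan18 (peak downstream of Zfp329, chr7:12803668-12803697, minus strand): tcagcttttagTGACGTCAggcagctcagg

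Over the 300-base windows, searched on both strands, the CCAAT box was in 6 of the 17 and in 37.4% of all 32851 RefSeq windows, and the GC box was in 6 of the 17 and in 35.7% of all. The NRF1 motif was in 1 of the 17 and in 4.60% of all, and the cAMP response element was in 1 of the 17 and in 1.79% of all. The TATA box (TATAAA) was in 0 of the 17 and in 13.6% of all, the ETS motif (CCGGAAG) in 2 and in 8.86%, and the AP-1 motif (TGANTCA) in 2 and in 7.81%. A match is a description of the letters and not a bound site. No sequence is capitalised at Gm33475 and Gm29638 because none of these motifs matched in the bases shown.

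Exon peaks were the most frequent kind. After PPx the 366 members between βKO and control islets were 204 exon, 84 3' UTR, 65 downstream and 13 5' UTR peaks. Of the downstream peaks 21 were under 1 kb, 18 at 1 to 2 kb and 26 at 2 to 3 kb from the gene end in the authors' annotation. No exon peak was assigned to the first exon, which the separate promoter label near a gene start largely leaves out. Of the 204, 46 lay in the last exon, and the median peak was in exon 7 of genes with a median of 13.5 exons. The members belonged to 355 genes, 38 peaks were at predicted genes (symbols of Gm and a number, or ending in Rik), and 17 of those were among the 46 last-exon peaks. All peaks are 601 bases wide, and the members were weaker than promoter peaks but not than intron or distal intergenic peaks. Their median log2 concentration, the authors' normalized read level of a peak, was 3.51, against 3.80 over all peaks and 4.08 at promoters in the authors' deposited table. It was 3.47 at intron peaks and 3.47 at distal intergenic peaks.

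Before PPx a peak in Arid1a itself was the single member that differed between genotypes at the authors' threshold. In the authors' deposited table, 1 of 164 members opened, meaning an FDR under 0.05 with a higher level in βKO islets, against 0.0128% of all peaks tested, and 0 closed (0% of all peaks tested). The FDR is the authors' own adjusted p-value from their differential peak table. At an unadjusted p under 0.05, 2 members were higher (0.843% of all peaks) and 10 lower (2.3% of all peaks). Lower at that threshold were also 54 of 750 intron and 62 of 1435 distal intergenic peaks. The median log2 change, βKO minus control, was -0.105 for the members and 0.00 for all peaks, and 65 of 164 members were higher in βKO islets (48.9% of all peaks). The median change was -0.21 for intron and -0.12 for distal intergenic peaks.

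The member that opened lies in exon 9 of 20 of Arid1a, the targeted gene (mm10, chr4:133692981-133693581). The authors' deposited table gave a log2 concentration of 5.49 in βKO islets and 1.21 in control islets before PPx, a log2 change of 4.28 ± 0.83 (standard error implied by the deposited fold and p-value) with an FDR of 0.00187. It was called as a peak in 3 of 3 βKO libraries and in 0 of 4 control libraries, so it was listed only through βKO libraries. After PPx the level was 4.04 in βKO islets and 0.40 in control islets, a change of 3.64 ± 0.69 with FDR 0.00201 per the authors' deposited table, with calls in 3 of 4 βKO and 0 of 4 control libraries. The groups are far apart at both times. A gain of signal at exon 9 does not by itself check the deletion, because the sources used here do not give the exons between the loxP sites.

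Other members with a small p-value before PPx were mostly lower in βKO islets, and each had an FDR of 1. Exon 24 of 38 of Chd7, a chromatin remodeller gene, read 3.15 in βKO and 4.43 in control islets (p = 0.00361) in the authors' deposited table. The peak downstream of Dyrk3, a protein kinase gene, read 2.22 in βKO and 3.82 in control islets, and exon 9 of the kinase gene Tnni3k read 2.82 in βKO and 4.20 in control islets, per the authors' deposited table. Peaks downstream of the receptor genes Olfr78 (3.61 in βKO, 4.51 in control) and Gpr84 (2.92 in βKO, 3.99 in control) had p-values of 0.0256 and 0.0305 in the authors' deposited table. Each of the last 5 peaks was called in 0 of 3 βKO libraries and in 2 or 3 of 4 control libraries. They were thus listed only through control libraries, so these calls are no separate support for a lower level in βKO islets. With 3 βKO and 4 control mice, a missing call is no evidence that βKO and control islets were alike.

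After PPx most members were higher in βKO than in control islets, with a smaller median difference than at promoter peaks. The median member read 3.67 in βKO islets and 3.34 in control islets, per the authors' deposited table, with a median log2 change of 0.39 (quartiles 0.07 and 0.70). The median change was 0.61 over all peaks, 0.71 for promoter peaks, 0.37 for intron peaks and 0.39 for distal intergenic peaks. A higher level in βKO islets was seen at 290 of 366 members (79.2%), against 90.3% of all peaks tested, and 118 of the 366 lay above the table's median of 0.61. The higher share was 78.1% of intron and 80.6% of distal intergenic peaks. Of the members 12 opened (3.28%), against 9.88% of all peaks tested, and 2 closed (0.546%), against 0.0839%, both per the authors' deposited table. Of the 1670 intron peaks 2.04% opened and 0 closed, and of the 3025 distal intergenic peaks 3.17% opened and 9 closed. At an unadjusted p under 0.05, 62 members were higher (33% of all peaks) and 4 lower (0.526% of all peaks). Among the 144 members called in no control library, 135 were higher, with a median change of 0.60. These were listed only through their calls in βKO libraries, and the share and median over all members rest in part on them. Of the 12 members that opened, 7 were among these 144. Among the 222 members called in a control library, 155 were higher, with a median change of 0.26. The differences between classes of peaks were not tested, since peaks are not replicates of a genotype.

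**Figure D1:**
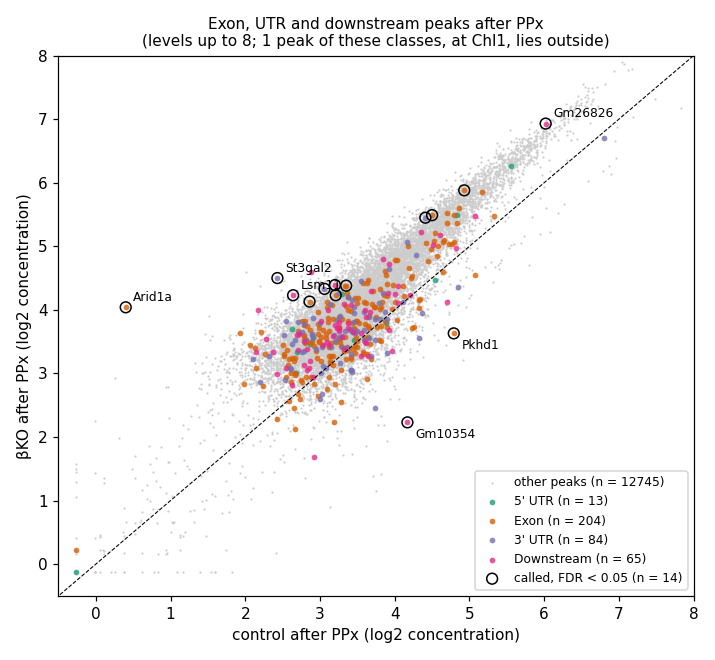
Log2 concentration of each peak in βKO islets (vertical axis) and control islets (horizontal axis) after PPx, with members coloured by class, other peaks in grey and circles around the 14 called members. Most members sit above the dashed line of equal levels, Arid1a stands far above it at 4.04 and 0.40, and the 2 circles below it are Gm10354 and Pkhd1.

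Called members after PPx had higher levels in βKO islets at genes with varied roles. The 3' UTR of St3gal2, a sialyltransferase gene (chr8:110970038-110970638), read 4.50 in βKO and 2.43 in control islets, a log2 change of 2.08 ± 0.48 with FDR 0.0154 per the authors' deposited table. It was called in 3 of 4 βKO and 0 of 4 control libraries. The peak 1 to 2 kb downstream of Lsm11, which encodes a component of the U7 particle that processes histone mRNA ends, read 4.23 in βKO and 2.64 in control islets (change 1.59 ± 0.46, FDR 0.0267 in the authors' deposited table). The promoter peak of Lsm11 itself read 4.54 in βKO and 3.67 in control islets, a change of 0.87. A further pair of 3' UTR peaks opened, at Aqp4, a water channel gene (4.33 in βKO, 3.06 in control, FDR 0.0386), and at Vsig8, an immunoglobulin-domain gene (5.45 in βKO, 4.41 in control, FDR 0.037), in the authors' deposited table. The Aqp4 peak also overlaps the RefSeq gene A830021F12Rik.

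Last exons held 4 of the 6 exon peaks that opened. They were exon 3 of 3 of Synpo, an actin-associated protein gene (4.13 in βKO, 2.86 in control), exon 3 of 3 of Mboat4, and the predicted genes 3300002I08Rik (5.49 in βKO, 4.50 in control) and 1810019N24Rik (5.88 in βKO, 4.93 in control) in the authors' deposited table. Mboat4 encodes the enzyme that acylates ghrelin, a hormone of a minor islet cell type. Its peak (chr8:34123790-34124390) read 4.23 in βKO and 3.21 in control islets, a change of 1.02 ± 0.38 with FDR 0.0491 per the authors' deposited table, and was called in 4 of 4 βKO and 0 of 4 control libraries. Before PPx the same peak read 3.42 in βKO and 3.95 in control islets with FDR 1 per the authors' deposited table. Over all last exons 4 of 46 peaks opened (8.70%, median change 0.55), near the 9.88% of all peaks (median change 0.61), and over other exons 2 of 158 did (1.27%, median change 0.305). The other exon peaks that opened were Arid1a and exon 7 of 11 of St3gal6, a second sialyltransferase gene (4.38 in βKO, 3.35 in control, FDR 0.0471 in the authors' deposited table). With a Benjamini-Hochberg adjustment of the deposited p-values over all 13111 peaks, the peaks at Vsig8, Aqp4, Synpo, Mboat4, St3gal6, 3300002I08Rik, 1810019N24Rik and Gm26826 no longer passed, with adjusted p-values from 0.0513 to 0.0687.

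Some members named for one gene lay at the start of another. The peak under 1 kb downstream of Camk2g, a calmodulin-dependent kinase gene, covers the RefSeq start of Ndst2, a heparan sulfate sulfotransferase gene whose GC box is shown above. It read 4.39 in βKO and 3.20 in control islets, a change of 1.19 ± 0.38 with FDR 0.0351 per the authors' deposited table. The peaks at 3300002I08Rik, 1810019N24Rik and St3gal6 overlap start windows of Gm10130, Gm29638 and Gm33475. Of the 17 members with a start window 4 opened, against 9.88% of all peaks and 14.3% of promoter peaks. The median change was 0.89 in the members with a start window and 0.38 in those without, against 0.61 over all peaks. The order was the same before PPx (0.24 in 8 members with a start window, -0.115 without) and over time in βKO islets (0.99 in 15 with, 0.78 without). Over time in control islets it was the other way round, with 0.09 in 8 members with a start window and 0.20 in those without. The predicted gene Gm26826 had the strongest opened member, 2 to 3 kb downstream, with 6.93 in βKO and 6.02 in control islets (FDR 0.0396 in the authors' deposited table) and with calls in every library.

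The members that closed were at Pkhd1 and Gm10354. Exon 61 of 67 of Pkhd1, which encodes fibrocystin, a protein of primary cilia and ducts (chr1:20117046-20117646), read 3.63 in βKO and 4.79 in control islets after PPx, a change of -1.16 ± 0.37 with FDR 0.0345 per the authors' deposited table. It was called in 1 of 4 βKO and 4 of 4 control libraries. Before PPx it read 4.17 in βKO and 4.33 in control islets. Over time it read 3.66 after and 3.92 before PPx in βKO islets, and 4.84 after and 4.15 before PPx in control islets, both without a call in the authors' deposited tables. A second member at the 3' UTR of Pkhd1 read 3.95 in βKO and 4.37 in control islets after PPx and did not pass (FDR 0.385 in the authors' deposited table). Pkhd1 was the 1 gene of the duct list with a member. The Pkhd1 promoter read 4.40 in βKO and 4.22 in control islets. The peak downstream of Gm10354 read 2.23 in βKO and 4.17 in control islets (FDR 0.0212 in the authors' deposited table). It was called in 1 library of each group, and it overlaps the RefSeq pseudogene Speer8-ps1 of a family of similar copies, so its reads are uncertain.

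**Figure D2:**
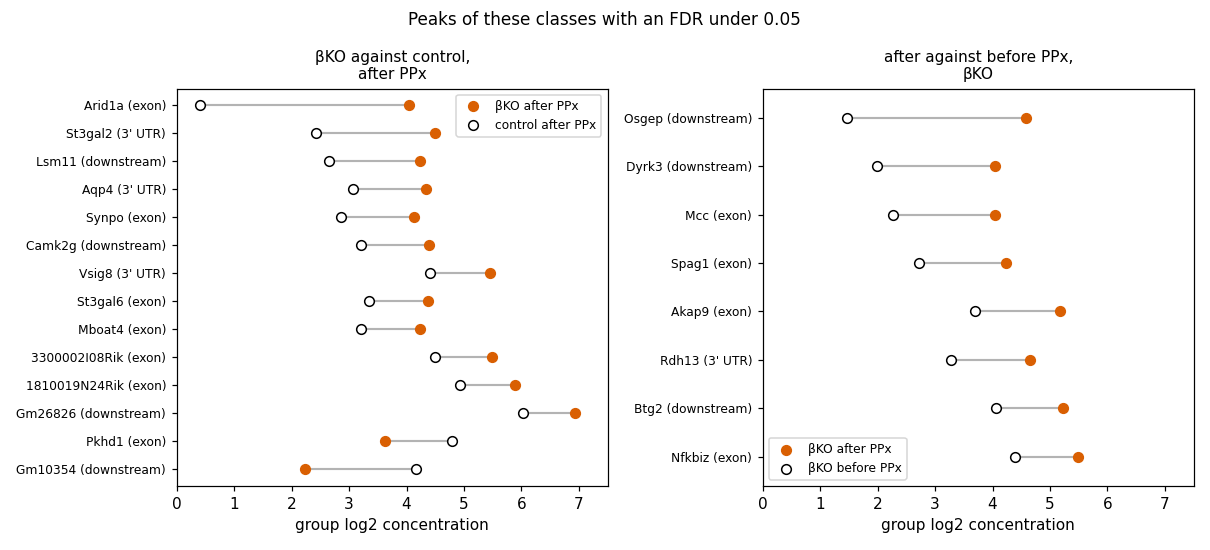
Group log2 concentrations of members with an FDR under 0.05 after PPx between genotypes (left, all 14 members) and over time in βKO islets (right, 8 of 9 members), with filled points for βKO after PPx and open points for control after PPx or βKO before PPx. Filled points lie to the right except at Pkhd1 and Gm10354.

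Members with small p-values that were not called included several with low levels. The authors' deposited table gives an FDR of 1 to 178 of the 366 members, of which 20 have a p-value under 0.05, so these were not called whatever their p-value. Over all peaks this was so for 4534 of 13111, and for 1916 of 8050 promoter peaks. The opened shares given above include such peaks in their totals. Of the 188 members with another FDR 12 opened (6.38%). This share is not comparable with the 9.88% of all peaks, whose total of 13111 keeps the 4534 with an FDR of 1. Over all peaks 1296 opened. The peak under 1 kb downstream of Elf4, an ETS transcription factor gene, read 3.99 in βKO and 2.17 in control islets (p = 0.000144, FDR 1 in the authors' deposited table). Exon 14 of 23 of Cog5, a Golgi complex gene, read 3.64 in βKO and 1.93 in control islets (p = 0.00181, FDR 1 in the authors' deposited table). Elf4 (0.0295) and Cog5 (0.0484) passed with the Benjamini-Hochberg adjustment over all peaks. The 3' UTR of Lifr, the leukemia inhibitory factor receptor gene, read 2.46 in βKO and 3.73 in control islets (p = 0.0108, FDR 1 in the authors' deposited table). Exon 32 of 34 of the mucin gene Muc6 read 2.23 in βKO and 3.19 in control islets, per the authors' deposited table.

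In the 5' UTR class 0 of 13 members passed the authors' FDR, against 9.88% of all peaks that opened, and 3 were higher at an unadjusted p under 0.05, against 33% of all peaks. So few members do not set the class apart. The 3 were at the kinesin gene Kifc3 (4.25 in βKO, 3.30 in control, FDR 0.0653), the methionine sulfoxide reductase gene Msra (3.70 in βKO, 2.63 in control, FDR 1) and Sybu, a gene for a linker between kinesin and its cargo (6.27 in βKO, 5.56 in control, FDR 0.081), in the authors' deposited table.

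The gene lists used for islets touched few members. After PPx 8 of 14 lists held 19 members. From the EGF, neuregulin and ERBB list 5 members at 4 genes were all higher in βKO islets and 0 passed the authors' FDR, with a median change of 0.74, against 0.61 over all peaks. Over all peaks 90.3% were higher and 9.88% opened, so these counts do not set the list apart. At Egf, exon 6 of 24 read 5.60 in βKO and 4.86 in control islets (p = 0.0276, FDR 0.0827) and exon 4 of 24 read 3.45 in βKO and 2.06 in control islets (p = 0.0132, FDR 1) in the authors' deposited table. The exon 6 peak covers a RefSeq start of Egf at 129725086, with the NRF1 motif shown above. Egf is on the minus strand and its exon 4 peak, from 129736290, lies upstream, so this start is inside the gene. Exon 10 of 10 of the neuregulin gene Nrg2 read 3.67 in βKO and 2.71 in control islets (p = 0.0336), and exon 2 of 2 of Nrg3 read 4.55 in βKO and 3.88 in control islets (p = 0.0569), in the authors' deposited table. Exon 8 of the receptor gene Egfr read 3.00 in βKO and 2.61 in control islets (p = 0.498) in the authors' deposited table.

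All 6 members at zinc finger (Zfp) genes were higher in βKO islets, 0 passed the authors' FDR, and their median change was 0.555, against 0.61 over all peaks, of which 90.3% were higher and 9.88% opened. Those with p under 0.05 were the peaks downstream of Zfp329 (5.23 in βKO, 4.35 in control, FDR 0.0606) and of Zfp82 (3.54 in βKO, 2.28 in control, FDR 1) in the authors' deposited table. In RefSeq they hold the starts of Zscan18 and Zfp14, neighbouring zinc finger genes. The β cell identity list of 30 genes had a single member, exon 20 of 39 of Abcc8, which encodes the sulfonylurea receptor of the β cell potassium channel. It read 5.37 in βKO and 4.70 in control islets after PPx (p = 0.0399, FDR 0.101) and 4.78 in βKO and 4.71 in control islets before PPx, per the authors' deposited tables. From the cell cycle list, the peak downstream of Cdk1 read 3.96 in βKO and 3.67 in control islets and the 3' UTR of Skp2 read 3.00 in βKO and 3.02 in control islets after PPx, per the authors' deposited table, neither with a call.

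Among the strongest members, Gm26826 was called and the others named here were not. Exon 5 of 27 of Chl1, a neural adhesion gene, had the highest level of any member and read 12.76 in βKO and 12.69 in control islets after PPx (FDR 0.78 in the authors' deposited table). It read 12.79 in βKO and 12.75 in control islets before PPx. The mean level of the Chl1 peak after PPx, 12.73, was far above the 6.76 of the Lars2 peak. Whether the reads at these peaks map to a single place was not tested. The 3' UTR of Lars2, the mitochondrial leucyl-tRNA synthetase gene, read 6.71 in βKO and 6.80 in control islets after PPx (FDR 0.758 in the authors' deposited table). Exon 4 of 4 of Junos, a noncoding gene next to Jun, read 5.86 in βKO and 5.17 in control islets (FDR 0.0824 in the authors' deposited table).

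Members of the same gene did not always move alike. After PPx 9 genes had more than 1 member, and none of them had more than 1 called. At the RNA-binding protein gene Celf4, exons 12, 4 and 2 changed by 0.71, 0.56 and 0.25, and at Chd7, exons 13, 24 and 29 changed by 0.07, 0.09 and 0.22 in the authors' deposited table, none with a call. At Synpo the peak in exon 3 opened with a change of 1.27 ± 0.43, whereas the other, in exon 4 of 4 of another transcript, read 3.73 in βKO and 3.89 in control islets (FDR 0.784 in the authors' deposited table).

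After PPx the promoter differed more between the genotypes than the member did at most genes with both kinds of peak. After PPx 192 members at 184 genes had a promoter peak of the same gene in the same table, with a median change of 0.305 at the member and 0.73 at the promoter, and the signed change was lower at the member in 148 of the 192. Without regard to sign, the change was smaller at the member in 141 pairs and larger in 51 (medians 0.355 at the member and 0.73 at the promoter). Before PPx, by the same measure, it was smaller at the member in 34 pairs and larger in 49. Where a gene had several promoter peaks the strongest was taken, whereas every member was kept. The 8050 promoter peaks belonged to 7677 genes. The promoters of the pairs were also the stronger peaks, with a median log2 concentration of 4.395 against 3.595. Over all promoter peaks the median change was 0.55 at a level under 3 and 0.78 at 5 and above. How far this choice enters the difference was not tested. The promoter opened in 29 of the 192 pairs and the member in 3, against 14.3% of all promoter peaks and 3.28% of all members. Both opened in 0 pairs, and so few called members cannot show whether the 2 kinds open apart. Both peaks were higher at an unadjusted p under 0.05 in 16 of the pairs, the one of Lsm11 among them. At that threshold 3636 of all 8050 promoter peaks and 62 of all 366 members were higher. The rank correlation of both changes over the 192 pairs, which share libraries, was -0.04. The promoter of Lifr read 5.07 in βKO and 3.84 in control islets (change 1.24, FDR 0.0248 in the authors' deposited table), while its 3' UTR peak was lower, as given above. The promoter of Bzw1, a translation regulator gene, read 5.46 in βKO and 4.12 in control islets, and its exon member read 3.74 in βKO and 3.82 in control islets, per the authors' deposited table. The promoter of Ublcp1, a nuclear proteasome phosphatase gene, read 4.88 in βKO and 3.32 in control islets, and the downstream member read 4.26 in βKO and 3.91 in control islets, per the authors' deposited table.

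**Figure D3:**
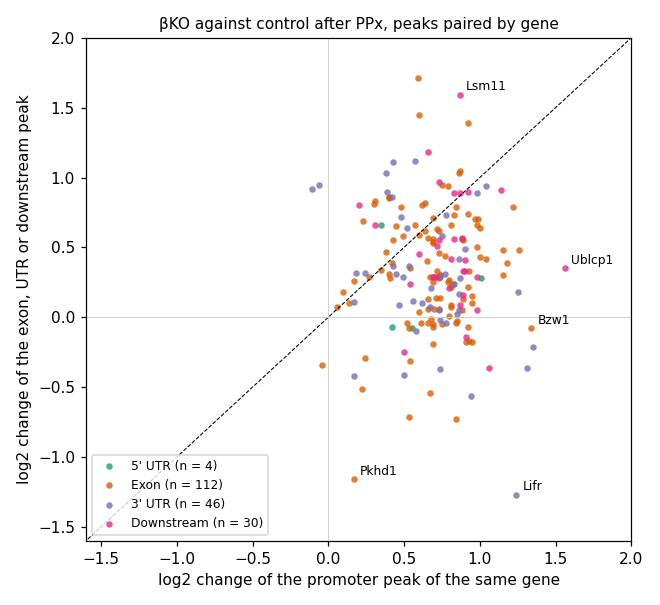
Log2 change, βKO minus control after PPx, of 192 exon, UTR and downstream peaks (vertical axis). The horizontal axis gives that of the strongest promoter peak of the same gene, and a dashed line marks where both are equal. Most points lie to the right of the line, with medians of 0.305 at the member and 0.73 at the promoter, and Lifr lies at -1.27 and 1.24.

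Where peaks of like strength were compared, a choice made after seeing the data, the share of opened members varied with the level. Among peaks with a mean log2 concentration of 3 to 4, 8 of 234 members opened (3.42%), against 4.78% of promoters, 1.46% of intron and 1.60% of distal intergenic peaks. At 4 to 5, 0 of 62 members passed the authors' FDR as higher, with 14 higher at an unadjusted p under 0.05, while 549 of 2751 promoter peaks, 4.32% of intron and 7.90% of distal intergenic peaks opened. At 5 and above, 4 of only 16 members opened (25%), against 28.8% of promoter, 10.2% of intron and 16.3% of distal intergenic peaks.

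In βKO islets most members read higher after than before PPx. The median member read 3.67 after and 2.96 before PPx, per the authors' deposited table. The median log2 change was 0.78, against 0.83 over all peaks, 0.86 at promoters, 0.82 at intron and 0.74 at distal intergenic peaks. Of 349 members 335 were higher after PPx (96%), against 97.1% of all peaks tested, and 162 lay above the table's median. The 156 members called in no library before PPx were listed only through calls after PPx. All 156 were higher, with a median change of 0.97, against 0.64 for the other 193 members. Of the 349 members 9 opened (2.58%), against 7.44% of all peaks tested, and 0 closed (0% of all), per the authors' deposited table. Of the 9 that opened, 4 were among those 156. The opened share was 4.54% of intron and 3.18% of distal intergenic peaks. At an unadjusted p under 0.05, 87 members were higher (39.4% of all peaks) and 1 was lower (0.0235% of all peaks), which was Arid1a exon 9 with 4.04 after and 5.26 before PPx (FDR 0.0584 in the authors' deposited table).

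**Figure D4:**
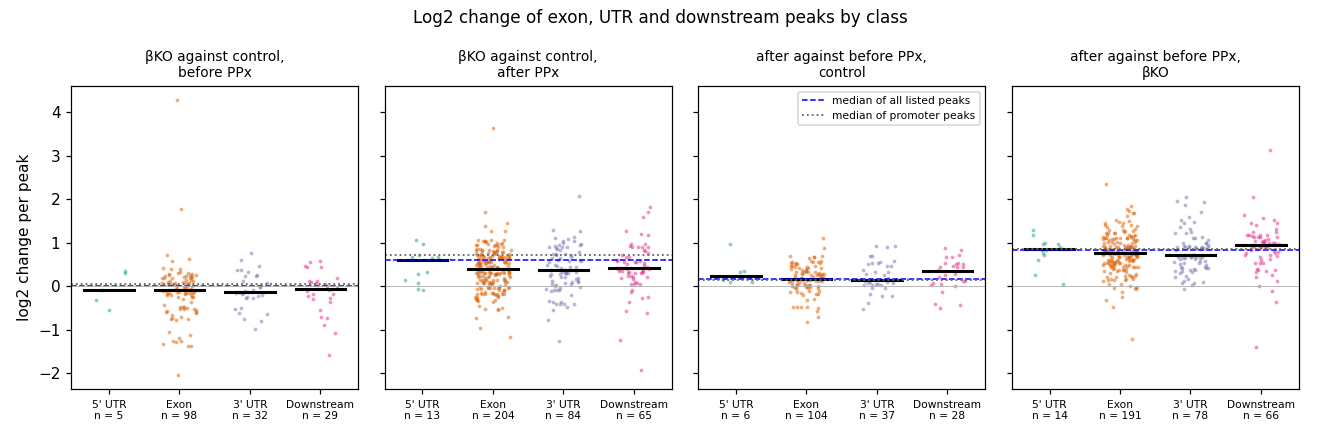
Log2 change of each member (points) by class in the 4 comparisons, with black bars at the class medians and dashed and dotted lines at the medians of all peaks and of promoter peaks. After PPx between genotypes the exon, 3' UTR and downstream medians of 0.39, 0.37 and 0.41 lie below the 0.61 of all peaks, and over time in βKO islets every class median lies between 0.71 and 0.94.

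Among the 9 members that opened over time in βKO islets, the largest change was at the peak 2 to 3 kb downstream of Osgep, which encodes a tRNA-modifying enzyme (chr14:50903807-50904407), with 4.59 after and 1.46 before PPx in βKO islets, a change of 3.13 ± 0.87 with FDR 0.0282 per the authors' deposited table. It was called in 4 of 4 libraries after and 0 of 3 before PPx. It was thus listed only through calls after PPx, and these calls are no separate support. Exon 18 of 48 of Akap9, a kinase anchor gene of the centrosome and Golgi, read 5.17 after and 3.69 before PPx (change 1.48 ± 0.38, FDR 0.0231 in the authors' deposited table). The peak downstream of Dyrk3 read 4.05 after and 1.99 before PPx (change 2.06 ± 0.58, FDR 0.0282 in the authors' deposited table). The Dyrk3 promoter read 4.32 after and 2.16 before PPx, with an FDR of 0.023, and Dyrk3 was the 1 gene with both its promoter and a member called among the 184 pairs in that table. In those pairs the promoter opened in 8 and the member in 6, against 9.72% of all promoter peaks and 2.58% of all members.

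A further set of members opened in βKO islets after PPx. The peak under 1 kb downstream of Btg2, an antiproliferative gene, read 5.23 after and 4.06 before PPx, and exon 11 of 17 of Mcc, a gene mutated in colorectal cancers, read 4.05 after and 2.26 before PPx, per the authors' deposited table. Exon 6 of 12 of Nfkbiz, which encodes a regulator of NF-κB, read 5.49 after and 4.39 before PPx (FDR 0.041 in the authors' deposited table). The 3' UTR of Rdh13, a retinol dehydrogenase gene, read 4.65 after and 3.28 before PPx (FDR 0.041), and exon 11 of 19 of Spag1, a dynein arm assembly gene, read 4.23 after and 2.72 before PPx (FDR 0.0488; 0.0577 with a Benjamini-Hochberg adjustment over all peaks), in the authors' deposited table. The 3' UTR of the ubiquitin ligase gene Rnf11 read 3.71 after and 1.75 before PPx with FDR 1 and p = 0.00135 per the authors' deposited table.

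In control islets the members did not pass the test over time. In the authors' deposited table, 0 of 175 members passed in either direction, as for all peaks tested (0% higher and 0% lower), and the smallest FDR of a member was 0.999. At an unadjusted p under 0.05, 6 members were higher after PPx (2.43% of all peaks) and 0 lower (0.0991% of all peaks). The median change was 0.19, against 0.16 over all peaks, and 136 of 175 members were higher after PPx (72.8% of all peaks). Exon 58 of 103 of Dst, a cytoskeletal linker gene, read 4.14 after and 3.03 before PPx in control islets (p = 0.0101 in the authors' deposited table). The 3' UTR of Pde4dip, a centrosome and Golgi anchor gene, read 3.92 after and 3.03 before PPx, and the 5' UTR of Gas2, a growth arrest gene, read 3.98 after and 3.01 before PPx, per the authors' deposited table. Exon 23 of 65 of the fibrillin gene Fbn2 read 3.14 after and 3.84 before PPx (p = 0.0885 in the authors' deposited table).

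The members that opened over time in βKO islets differed in whether βKO and control islets lay further apart before or after PPx. At Mcc and Dyrk3 the gap was wider before PPx, with βKO islets the lower. Mcc exon 11 read 2.80 in βKO and 4.12 in control islets before PPx, and 4.05 in βKO and 3.72 in control islets after PPx, per the authors' deposited tables. The Dyrk3 peak read 2.22 in βKO and 3.82 in control islets before PPx, and 4.10 in βKO and 4.05 in control islets after PPx, per the authors' deposited tables. At Nfkbiz and Btg2 the gap was wider after PPx, with βKO islets the higher. Over all peaks the median change between genotypes was 0.00 before and 0.61 after PPx. The changes after PPx of 0.70 at Nfkbiz and 0.58 at Btg2 lay near that median, so they do not set these members apart. Nfkbiz exon 6 read 4.64 in βKO and 4.90 in control islets before PPx, and 5.49 in βKO and 4.79 in control islets after PPx, and the Btg2 peak read 4.27 in βKO and 4.54 in control islets before PPx, and 5.18 in βKO and 4.60 in control islets after PPx, per the authors' deposited tables. At the 3' UTR of Rdh13 the gaps were of like size, with 3.51 in βKO and 4.12 in control islets before PPx, and 4.65 in βKO and 3.92 in control islets after PPx, per the authors' deposited tables. These members were chosen by the contrast over time in βKO islets, so these values are a description and no test. The comparisons also share libraries, and the interaction of genotype with PPx was not tested. The level of a group also differs between the tables, as with 5.49 and 5.26 at Arid1a in βKO islets before PPx, so levels are on 1 scale only within a table.

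**Figure D5:**
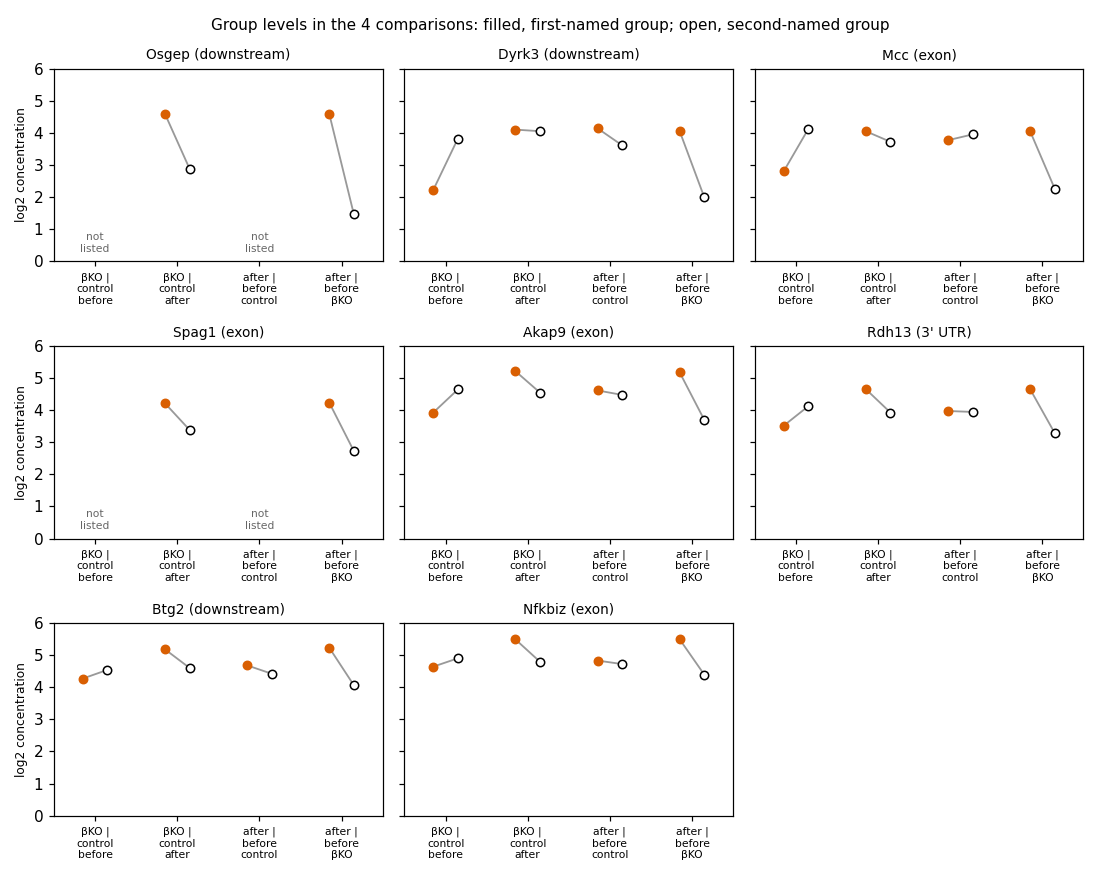
Group log2 concentrations of 8 of the 9 members called over time in βKO islets, in each of the 4 comparisons, with filled points for the first-named and open points for the second-named group. At Mcc and Dyrk3 the values of βKO islets before PPx (2.80 and 2.22) lie below those of control islets in the same table (4.12 and 3.82), and Osgep and Spag1 were listed in the 2 tables that hold βKO islets after PPx.

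Of the members after PPx, 123 had an overlapping member in all 4 tables. These had a median of 3.75 in βKO and 3.92 in control islets before PPx, and of 4.22 in βKO and 3.92 in control islets after PPx, per the authors' deposited tables. Over time the median was 4.23 after and 3.52 before PPx in βKO islets, and 3.98 after and 3.76 before PPx in control islets. Of the 366 members after PPx, 217 had no overlapping member in the table before PPx. Their median was 3.49 in βKO and 3.10 in control islets after PPx, with a median change of 0.39 in both the 149 shared and the 217 other members. Calls were made in more βKO than control libraries: 316 of the 366 members were called in at least 2 βKO libraries and 105 in at least 2 control libraries, and 144 in no control library. Over all 13111 peaks the same counts were 12043, 5775 and 3724, so βKO libraries had more calls in the whole table.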

How the data were processed

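Islet nuclei of 40000 cells per mouse were tagged with Tn5 and read as single ends of 75 bases, per the labels' protocols. Per the submitters' processing notes, the tools were cutadapt, BWA, DiffBind, MACS and ChIPseeker, on mm10 (GRCm38). The sources used here do not state versions, settings or any shift of reads. Per the file headers, the 4 deposited tables hold log2 concentrations of each group, a log2 fold, an FDR with its p-value, and how many libraries of each group had the peak called. Single libraries were not analysed here, so their depth is unknown, none could be left out, and the spread between mice enters only through the authors' p-values. Groups follow the labels, and 0 per-sample columns were left unmapped.

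Repeated rows were counted once. The deposited fold was turned so that positive means higher in βKO islets or after PPx, and a standard error came from the deposited p-value and fold by a normal approximation, not where p was 0.5 or more or the change under 0.1. Calls are the authors' FDR under 0.05. Peaks of different tables were matched at 1 shared base. Other thresholds, a Benjamini-Hochberg adjustment over all peaks, a minimum level and a minimum of calls were tried. Work was done in Python 3.11.15 with pandas 2.3.3, numpy 2.4.6 and scipy 1.17.1, and tested on simulated data. The counts include 1 member that is not reported here by name. Named peaks were those called, those with the smallest p in each class, the strongest, the lowest and those on the gene lists with p under 0.05; genes shown for their promoter, start site or several members, and list members with larger p, were picked after their values were seen. The members and lists were chosen with earlier results of these data known. Sequences come from RefSeq, on GRCm38.p6.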

Additional observations from a re-analysis of the deposited data

How the results depend on the processing

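Of 42 alternatives for the counts and medians, 29 kept the result, and some of these could not have changed. Over time in control islets 0 members were called and the smallest FDR of a member was 0.999, so the counts stayed at 0. Before PPx the median of all peaks was 0.00, so subtracting it changed nothing. The 14 members called between genotypes after PPx became 43 at an FDR under 0.1 (41 higher, 2 lower), 1 at an FDR under 0.01, 8 with a Benjamini-Hochberg adjustment over all peaks (6 higher, 2 lower), 5 at a mean log2 concentration of at least 4, and 4 with calls in at least 2 libraries of each group. The 9 called over time in βKO islets became 55 (54 higher, 1 lower), 0, 9, 5 and 3 under the same settings. Before PPx the 1 call became 0 with calls required in both groups. Minus the median of all peaks, the median change was -0.22 between genotypes after PPx and -0.05 over time in βKO islets, both turned in sign, and 0.03 over time in control islets. Under the Benjamini-Hochberg adjustment Vsig8, Aqp4, 3300002I08Rik, Synpo, Gm26826, St3gal6, 1810019N24Rik, Mboat4 and, over time, Spag1 no longer passed, and Elf4 (0.0295), Cog5 (0.0484) and, over time, Rnf11 (0.045) did. The cause of these shifts was not tested beyond the settings' own construction. No paired analysis was possible because the deposited tables give group levels, not libraries. The same limit applies to leaving out a replicate.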
